A study of Mus musculus with 4 samples.

Results

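The transcripts described here are 35 genes of liver hepatocytes (plasma carriers, apolipoproteins, fibrinogen and other clotting proteins, urea cycle and amino acid enzymes, and cytochromes P450), measured in mouse dorsal skin. They were chosen by gene name from a hepatocyte list, with their levels on these arrays already known, so their levels are given as a description. The array annotation named 33 of the 35, through 41 probe sets (groups of short probes that report the level of a transcript) of 45037 tested. Gc, the vitamin D carrier, and Ahsg, fetuin-A, were not named by it and were not analysed here.

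Skin RNA was taken at day 30 from male C3H mice, 8 weeks old at the start, whose shaved backs were given daily 1% TCQA (a quinic acid with caffeoyl groups, which is a plant polyphenol dissolved in ethanol and diluted in water) or the vehicle, Milli-Q water. TCQA was held by arrays TCQA 1 and TCQA 2, and vehicle by arrays Control 1 and Control 2. Each group of the study had 5 mice, and neither the labels nor the methods say if the RNA on an array came from a single mouse or was pooled, so p-values measure the spread between arrays only. All mice were shaved to start a new hair cycle, and the comparison asks how gene expression in the skin changed with TCQA.

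Hepatocytes are the main source of the proteins of blood plasma. Albumin, transthyretin and transferrin carry hormones, metals and fatty acids, apolipoproteins form the shell of lipoprotein particles, fibrinogen and antithrombin serve clotting, and the urea cycle and the cytochromes P450 handle ammonia, drugs and fatty acids inside the cell. Their genes are switched on together in liver by a small set of transcription factors, among them HNF1, HNF4, FOXA and C/EBP. Skin is not a main site of most of these transcripts, although Rbp4 and Hp are also made by fat cells, Apoa1 and Fabp1 by intestine, and Ass1 by many tissues.

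The 4 arrays did not stand alike. Over all probe sets, TCQA 1 and Control 2 correlated at r = 0.956, TCQA 2 with those arrays at 0.886 and 0.884, and Control 1 with the other 3 at 0.412 to 0.413. Keratinocyte markers, which define the labelled tissue, had a median log2 value of 2.02 and 2.25 on TCQA 1 and TCQA 2, against 7.99 and 2.02 on Control 1 and Control 2. Markers of the labelled tissue were thus high mainly on Control 1, and the comparison of the groups is given below with and without that array. Ribosomal protein genes, which all cells use, had a median of 2.90 and 2.72 on TCQA 1 and TCQA 2, against 9.31 and 2.97 on Control 1 and Control 2, and 25 of 26 were high on Control 1. Low values on TCQA 1, TCQA 2 and Control 2 thus extended to genes that all cells use, so a liver gene that was high on Control 1 alone was not measured against arrays on which such genes were high. How far the hybridisation of the arrays plays a part was not tested.

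Within this set of arrays a gene was called high on TCQA 2 or on Control 1 where that array lay at least 1 on the log2 scale (2-fold) above the higher of TCQA 1 and Control 2, by the gene's probe set with the highest mean over the 4 arrays. By that rule 3 of the 33 liver genes were high on TCQA 2 (9.09%), beside 0.79% of all 17097 genes, and 25 were high on Control 1 (75.8%), beside 21.0% of all genes. Among the 15468 other genes whose mean over TCQA 1 and Control 2 lay in the range of the liver genes, the shares were 0.808% on TCQA 2 and 21.7% on Control 1. The 3 genes high on TCQA 2 were Ttr, Mup3 and Cyp2c29, and all 3 were also high on Control 1. The remaining 8 of the 33, Apob, F2, Plg, Otc, Ass1, Tat, Tdo2 and Baat, were high on neither array. Nearest the threshold on TCQA 2, Cyp2c29 lay 1.93 above the higher of the low pair and Serpinc1 0.97 above it. Nearest it on Control 1, Cyp2c29 and Hpd lay 1.02 above and F2 0.15 above. Since the genes were chosen with these levels known, the shares describe the list and are not a test.

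**Figure D1:**
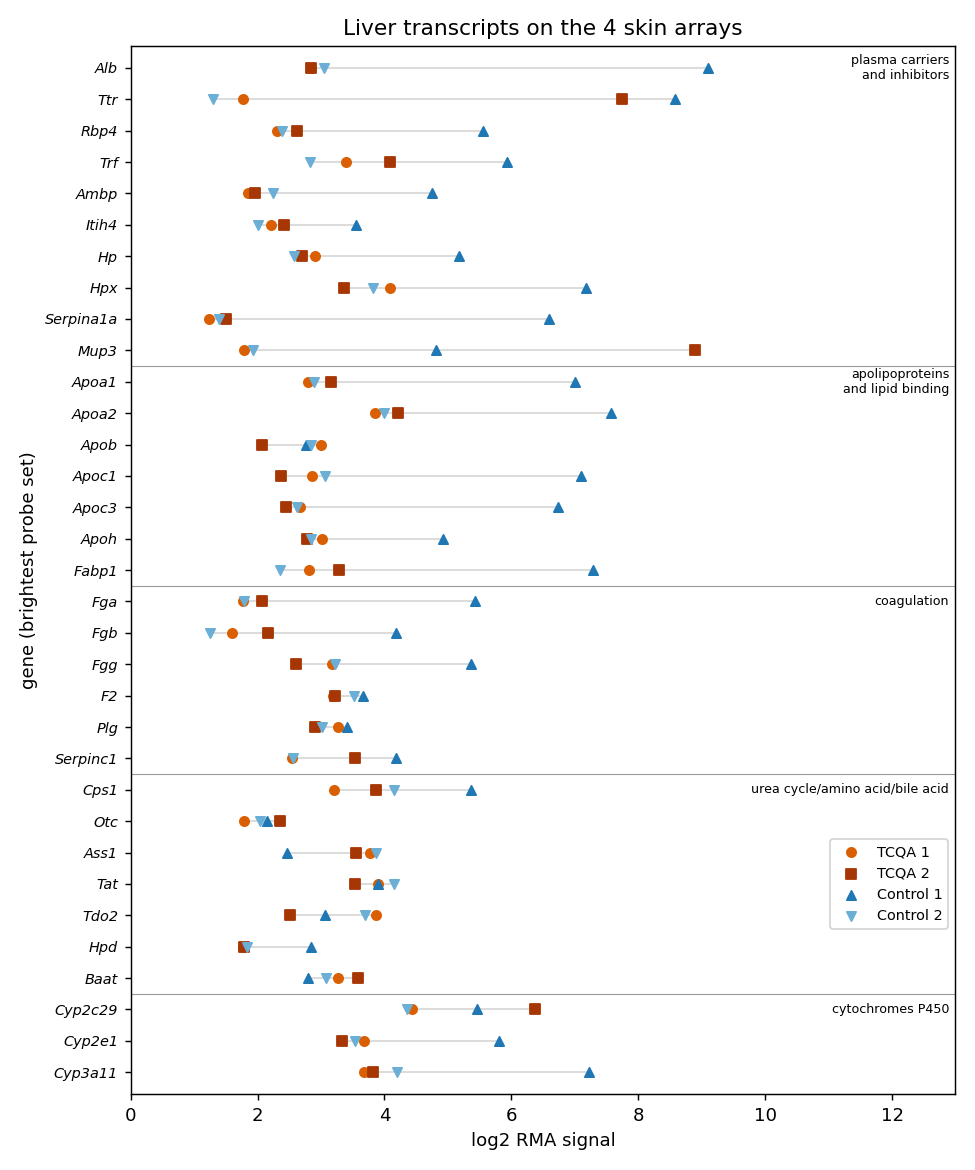
Log2 RMA signal of the 33 measured liver genes on the 4 arrays, 1 row per gene by its brightest probe set, grouped by role. TCQA 1, TCQA 2 and Control 2 lie close together in most rows with Control 1 to their right, and TCQA 2 stands at least 1 to the right of TCQA 1 and Control 2 for Ttr, Mup3 and Cyp2c29.

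Between TCQA 1 and Control 2 the liver genes differed as little as all genes did. The median absolute difference was 0.187 for the liver genes and 0.187 for all genes. The difference, TCQA 1 minus Control 2, had a median of -0.03 and ran between -0.94 (Cps1) and 0.56 (Trf), and 0 of 33 genes lay 1 or more apart, beside 0.322% of all genes. The liver genes had a median log2 value of 2.91 and 2.90 on TCQA 1 and TCQA 2, against 5.37 and 2.84 on Control 1 and Control 2, while over all genes the medians were 2.87 and 2.77 against 2.75 and 2.88. Most of the liver transcripts were thus high on Control 1 alone, and a few on TCQA 2 also.

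The upstream sequence of the genes is shown for members that were high on the same array and for Mup3 and Cyp2c29, which were high on TCQA 2 too, with the motifs of liver factors that they hold. Promoters were taken from RefSeq, build GRCm38.p6. Liver genes on a chromosome that was set aside were not counted, and 25 of the 33 measured genes had an entry that was used. The 250 bases before the annotated start are printed 5′ to 3′ on the strand of the gene, and lie upstream of its first exon: Alb (chr5:90460620-90460869, plus strand), Serpina1a (chr12:103863620-103863869, minus strand), Fabp1 (chr6:71199629-71199878, plus strand), Fga (chr3:83025903-83026152, plus strand), Fgb (chr3:83049864-83050113, minus strand), Apoa1 (chr9:46228380-46228629, plus strand), Mup3 (chr4:62087318-62087567, minus strand), Cyp2c29 (chr19:39286835-39287084, plus strand). Capitals mark matches, on either strand, to GTTAAT (the core of an HNF1 site), TGTTTNC (FOXA), TTGCNNAA (C/EBP) and TATAAA (the core promoter box).
Alb: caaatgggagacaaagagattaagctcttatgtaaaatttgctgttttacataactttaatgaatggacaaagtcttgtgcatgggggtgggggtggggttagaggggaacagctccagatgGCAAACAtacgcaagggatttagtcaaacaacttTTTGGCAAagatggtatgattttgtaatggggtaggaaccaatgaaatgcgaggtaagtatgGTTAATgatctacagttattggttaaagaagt
Serpina1a: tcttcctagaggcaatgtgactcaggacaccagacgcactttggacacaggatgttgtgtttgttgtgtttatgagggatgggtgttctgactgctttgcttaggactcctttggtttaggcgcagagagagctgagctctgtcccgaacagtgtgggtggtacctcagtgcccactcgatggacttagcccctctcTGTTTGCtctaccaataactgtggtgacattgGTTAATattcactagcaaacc
Fabp1: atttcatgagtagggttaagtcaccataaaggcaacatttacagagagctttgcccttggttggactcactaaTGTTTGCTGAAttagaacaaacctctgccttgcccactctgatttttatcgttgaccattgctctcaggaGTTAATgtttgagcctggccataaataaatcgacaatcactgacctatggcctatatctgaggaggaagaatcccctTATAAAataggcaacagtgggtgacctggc
Fga: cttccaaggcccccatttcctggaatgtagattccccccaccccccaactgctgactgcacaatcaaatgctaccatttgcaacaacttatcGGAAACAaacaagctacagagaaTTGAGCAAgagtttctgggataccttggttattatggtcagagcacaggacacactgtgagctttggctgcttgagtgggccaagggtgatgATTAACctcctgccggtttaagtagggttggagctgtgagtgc
Fgb: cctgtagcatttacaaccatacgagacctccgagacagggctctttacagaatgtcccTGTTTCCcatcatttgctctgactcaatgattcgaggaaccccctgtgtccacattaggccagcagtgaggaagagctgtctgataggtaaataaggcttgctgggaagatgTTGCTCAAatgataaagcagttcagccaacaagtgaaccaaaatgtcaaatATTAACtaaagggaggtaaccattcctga
Apoa1: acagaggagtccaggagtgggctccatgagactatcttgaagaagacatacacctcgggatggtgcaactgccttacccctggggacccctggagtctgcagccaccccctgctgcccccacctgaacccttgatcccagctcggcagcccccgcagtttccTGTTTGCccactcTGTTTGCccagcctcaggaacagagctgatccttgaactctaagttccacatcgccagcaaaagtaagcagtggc
Mup3: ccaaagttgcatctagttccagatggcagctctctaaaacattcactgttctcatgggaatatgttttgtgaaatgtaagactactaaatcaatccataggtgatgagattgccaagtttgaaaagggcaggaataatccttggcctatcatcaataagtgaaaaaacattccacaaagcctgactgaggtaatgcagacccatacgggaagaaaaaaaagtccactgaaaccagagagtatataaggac
Cyp2c29: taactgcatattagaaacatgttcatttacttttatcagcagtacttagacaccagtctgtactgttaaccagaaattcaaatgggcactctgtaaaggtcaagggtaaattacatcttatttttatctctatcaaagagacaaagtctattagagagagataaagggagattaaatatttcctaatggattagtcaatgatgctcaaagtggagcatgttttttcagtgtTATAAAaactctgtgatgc
In Alb, GTTAAT began at position -32 counted from the start, in Serpina1a at -21 and in Fabp1 at -107, and its reverse complement began at -43 in Fga and -29 in Fgb. The FOXA and C/EBP matches of Fabp1, at -177 and -174, overlap. Apoa1 held 2 FOXA matches, at -88 and -75, Cyp2c29 held TATAAA at -19 alone, and Mup3 held none of the 4 motifs.

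Motifs were counted in the window of 250 bases before to 50 after the start, on both strands. The 25 liver genes had 27 promoters and were counted by gene, with a match in any promoter, whereas the background was counted by promoter. GTTAAT was in 6 of the 25 liver genes (24%) and in 7.1% of all 32851 promoters. TGTTTNC was in 13 (52.0%, against 20.5% of all promoters), TTGCNNAA in 10 (40.0%, against 10.8%) and TATAAA in 9 (36.0%, against 13.6%). CAAAGTCCA, an HNF4 motif, was in 1 gene, Cyp3a11 (4.0%, against 0.475%). Of the 6 genes with GTTAAT, 5 were high on Control 1 (Alb, Serpina1a, Fabp1, Fga and Fgb) and F2 was not. Of all 33 measured liver genes 25 were high there (75.8%), so 6 genes are too few to tell carriers of the motif from the rest. Matches of this length are a description of the letters and not of binding.

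Among the plasma carriers and inhibitors, all 10 measured genes were high on Control 1 and 2 of them also on TCQA 2. Alb, the main protein of plasma, had log2 values of 2.84 and 2.84 on TCQA 1 and TCQA 2, against 9.09 and 3.05 on Control 1 and Control 2. Control 1 lay 65.7-fold above the higher of TCQA 1 and Control 2, and the other 3 arrays read nearly the same value. The log2 fold change of Alb, TCQA minus control, was -3.23 (SE 2.04, limma adjusted p = 0.923), and without Control 1 it was -0.21. Serpina1a, an alpha-1-antitrypsin that inhibits elastase, had the same shape, with 1.23 and 1.51 on the TCQA arrays, against 6.59 and 1.39 on Control 1 and Control 2. Its fold change was -2.62 (SE 1.76) and -0.02 without Control 1. The Serpina1 genes are near copies of each other and the probe set carries the suffix _x_at, given to sets with probes that can also match other sequences, so Serpina1a could not be told from its relatives.

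Ttr, transthyretin, the carrier of thyroxine and of the retinol-binding protein, was split between the groups. With its _x_at probe set it had 1.78 and 7.75 on TCQA 1 and TCQA 2, against 8.57 and 1.30 on Control 1 and Control 2. TCQA 2 lay 62.8-fold and Control 1 111-fold above the higher of TCQA 1 and Control 2, so that 1 array of each group was high and 1 was low. The values used here carry no detection call, and the low pair of Ttr, like that of Mup3 and Serpina1a, lay below the median of all probe sets (2.54 on TCQA 1 and 2.55 on Control 2), so these folds are ratios of the RMA values and were not set against a measured background. The fold change was -0.18 (SE 3.15, limma adjusted p = 0.995) and 3.46 without Control 1. A further Ttr probe set, with the suffix _a_at, which marks sets that match several transcripts of 1 gene, read otherwise on TCQA 2. It gave 2.45 and 2.28 on the TCQA arrays, against 5.6 and 2.44 on Control 1 and Control 2. Both Ttr probe sets were high on Control 1, and the _x_at set alone was high on TCQA 2.

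Mup3, a major urinary protein that liver secretes and urine carries off with bound pheromones, had 1.78 and 8.89 on TCQA 1 and TCQA 2, against 4.81 and 1.92 on Control 1 and Control 2. By the brightest probe set of each gene, it was the only liver gene with its highest value on TCQA 2 by at least 1 over all other arrays. That held for 0.456% of all genes. Counted by probe set it held for 2 of 41, the other being the _s_at set of Baat, beside 0.484% of all single-gene probe sets. For Mup3, TCQA 2 lay 125-fold and Control 1 7.39-fold above the higher of TCQA 1 and Control 2. The fold change of Mup3 was 1.97 (SE 2.58, limma adjusted p = 0.923), 3.41 without Control 1 and -1.58 without TCQA 2. Its probe set carries the suffix _s_at, which marks sets shared by transcripts of more than 1 gene, and the Mup genes are near copies, so the reading belongs to the family. Mup5, the other Mup gene named by a probe set of its own, had 3.63 and 3.11 on the TCQA arrays and 3.40 and 3.65 on the control arrays.

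The remaining carriers were high on Control 1 alone. Rbp4, which carries retinol, had 2.31 and 2.62 on the TCQA arrays, against 5.56 and 2.39 on Control 1 and Control 2. Hpx, the heme scavenger hemopexin, had 4.08 and 3.36, against 7.18 and 3.82. Hp, haptoglobin, which binds free hemoglobin, had 2.91 and 2.70, against 5.18 and 2.58. In these 3 genes TCQA 1, TCQA 2 and Control 2 lay less than 1 apart. Ambp, the precursor of alpha-1-microglobulin and bikunin, had 1.85 and 1.96 on the TCQA arrays, against 4.75 and 2.24 on Control 1 and Control 2. Itih4, an inter-alpha-trypsin inhibitor heavy chain, had 2.21 and 2.41, against 3.55 and 2.01. Trf, transferrin, the iron carrier, had 3.40 and 4.09, against 5.93 and 2.83. For Trf both TCQA arrays lay above Control 2 and below Control 1, and the fold change was -0.64 (SE 1.10) over the 4 arrays and 0.91 without Control 1. The fold changes of the other 5 were between -1.78 and -0.47 over the 4 arrays and between -0.34 and 0.30 without Control 1.

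Of the 7 apolipoproteins and lipid binders, 6 were high on Control 1 and 0 on TCQA 2. Apoa1, the main protein of high-density lipoprotein, had 2.79 and 3.16 on TCQA 1 and TCQA 2, against 7.0 and 2.89 on Control 1 and Control 2, and its other probe set had 2.41 and 3.06, against 7.40 and 2.46. Both readings placed Control 1 apart and the other arrays together. The fold change of Apoa1 was -1.97 (SE 1.41) with the brighter set and 0.08 without Control 1. Apoa2, its partner in the same particle, had 3.86 and 4.22 on the TCQA arrays, against 7.56 and 4.0 on Control 1 and Control 2. Apoc1, a small apolipoprotein that lipoprotein particles exchange, had 2.86 and 2.37, against 7.10 and 3.06. Apoc3, an inhibitor of lipoprotein lipase, had 2.67 and 2.44, against 6.74 and 2.63. Control 1 lay 11.9-fold, 16.5-fold and 16.8-fold above the higher of TCQA 1 and Control 2 for Apoa2, Apoc1 and Apoc3.

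Apob, the backbone of very low-density lipoprotein, was the exception in that role. It had 3.0 and 2.08 on the TCQA arrays and 2.76 and 2.84 on the control arrays, with no array standing above the rest. Apoh, beta-2-glycoprotein I, had 3.02 and 2.78 on the TCQA arrays, against 4.92 and 2.84 on Control 1 and Control 2, but its other probe set had 3.59 and 3.40, against 2.23 and 4.26. In that set Control 1 was the lowest array, so the Apoh readings opposed each other. Fabp1, the fatty acid binding protein of liver and intestine, had 2.81 and 3.28 with its brighter set on the TCQA arrays, against 7.28 and 2.35 on Control 1 and Control 2. Its other set had 1.02 and 3.21, against 7.07 and 1.22, and was high on TCQA 2 as well as on Control 1. The fold change of Fabp1 was -1.77 (SE 1.68) with the brighter set and 0.70 without Control 1.

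**Figure D2:**
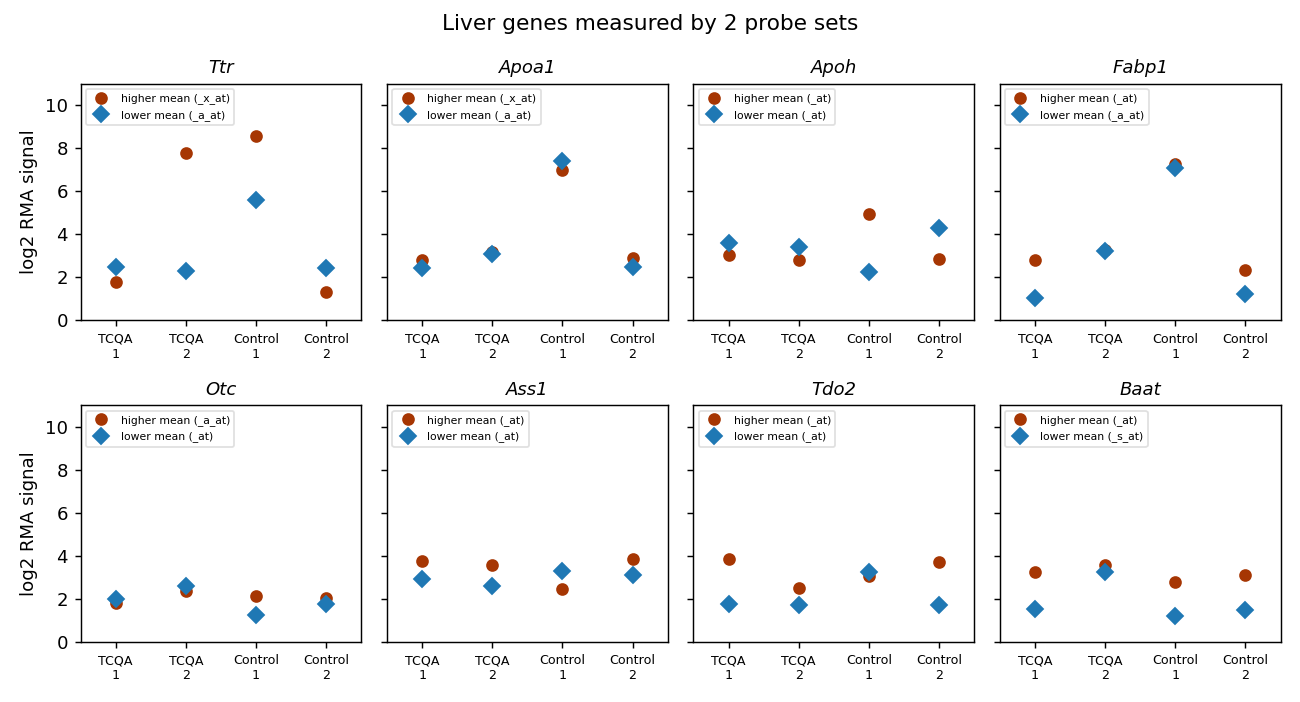
Log2 RMA signal of the 8 liver genes measured by 2 probe sets, on TCQA 1, TCQA 2, Control 1 and Control 2, circles for the set with the higher mean and diamonds for the other. The sets of Ttr part on TCQA 2 (7.75 and 2.28) and those of Apoh on Control 1 (4.92 and 2.23), whereas those of Apoa1 lie together on all 4 arrays.

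Of the 33 genes, 8 had 2 probe sets and 25 had 1. For 3 of the 8 (Apoa1, Otc and Ass1) the sets fell in the same class, and for 5 (Ttr, Apoh, Fabp1, Tdo2 and Baat) they did not. Counted by probe set, 5 of 41 were high on TCQA 2 (12.2%), beside 0.782% of the 28898 probe sets that name 1 gene, and 29 were high on Control 1 (70.7%), beside 20.1%. The 5 on TCQA 2 were the _s_at set of Mup3, the _x_at set of Ttr, the _a_at set of Fabp1, the set of Cyp2c29 and the _s_at set of Baat. When all those 28898 probe sets were ordered by how far TCQA 2 lay above the higher of TCQA 1 and Control 2, these held ranks 1, 3, 11, 12 and 17. Only the Cyp2c29 set had no suffix that marks shared or several transcripts, and of all single-gene sets 0.883% with the suffix _s_at, 1.07% with _a_at, 2.03% with _x_at and 0.663% with none of these were high on TCQA 2.

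In the coagulation group 4 of 6 genes were high on Control 1. The 3 chains of fibrinogen, the precursor of the fibrin clot, were all among them. Fga had 1.77 and 2.08 on TCQA 1 and TCQA 2, against 5.42 and 1.79 on Control 1 and Control 2, Fgb had 1.60 and 2.17, against 4.18 and 1.26, and Fgg had 3.18 and 2.61, against 5.37 and 3.23. Control 1 lay 12.4-fold, 5.96-fold and 4.42-fold above the higher of TCQA 1 and Control 2. Their fold changes were -1.69 (SE 1.26), -0.83 (SE 1.04) and -1.41 (SE 0.81), and without Control 1 they were 0.13, 0.63 and -0.33. Serpinc1, antithrombin, had 2.54 and 3.54 on the TCQA arrays, against 4.18 and 2.56 on Control 1 and Control 2, so TCQA 2 lay between the low pair and Control 1. Prothrombin (F2) had 3.18 and 3.22, against 3.67 and 3.51, and plasminogen (Plg) had 3.27 and 2.90, against 3.41 and 3.02. For F2 and Plg all 4 arrays lay less than 1 apart.

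The urea cycle, amino acid and bile acid enzymes were the role with the fewest genes high on Control 1, 2 of 7. That share, 28.6%, was near the 21.0% of all genes. Cps1, carbamoyl-phosphate synthase, which takes ammonia into the urea cycle in mitochondria, had 3.21 and 3.86 on TCQA 1 and TCQA 2, against 5.36 and 4.15 on Control 1 and Control 2. Both TCQA arrays lay below both control arrays for Cps1, and its fold change of -1.22 (SE 0.56) had the smallest unadjusted p of all liver probe sets (0.0861, limma adjusted p = 0.923). Without Control 1 it was -0.62. Hpd, which breaks down tyrosine, had 1.77 and 1.79 on the TCQA arrays, against 2.85 and 1.83 on Control 1 and Control 2, just past the 2-fold threshold on Control 1.

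Otc and Ass1, the next enzymes of the urea cycle, were high on neither array. Otc had 1.79 and 2.35 with its brighter set on the TCQA arrays and 2.15 and 2.03 on the control arrays. Its other set had 2.0 and 2.58, against 1.24 and 1.78, with Control 1 the lowest array. Ass1 had 3.78 and 3.55 with its brighter set, against 2.46 and 3.87, and Control 1 was the lowest array. The other set of Ass1 read the opposite way, with 2.94 and 2.58, against 3.31 and 3.10, and Control 1 the highest array. Tat, which starts tyrosine breakdown, had 3.89 and 3.53, against 3.89 and 4.15. Tdo2, which opens the tryptophan ring, had 3.87 and 2.52 with its brighter set, against 3.06 and 3.70, and 1.76 and 1.73, against 3.23 and 1.72, with the other, which alone was high on Control 1. Baat, which joins bile acids to taurine or glycine, had 3.27 and 3.58, against 2.80 and 3.09. By its brightest set it was the only liver gene in which each TCQA array exceeded each control array, and its fold change was 0.48 (SE 0.35, limma adjusted p = 0.923). The other set of Baat had 1.54 and 3.27, against 1.21 and 1.49, and stood apart on TCQA 2.

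All 3 cytochromes P450 were high on Control 1. Cyp2c29, an epoxygenase of fatty acids and drugs, had 4.44 and 6.37 on TCQA 1 and TCQA 2, against 5.45 and 4.35 on Control 1 and Control 2. It was higher on TCQA 2 than on Control 1, and its fold change was 0.50 (SE 0.81, limma adjusted p = 0.929), 1.05 without Control 1 and -0.47 without TCQA 2. Cyp2e1, which oxidises ethanol, had 3.67 and 3.33, against 5.80 and 3.54, with a fold change of -1.17 (SE 0.83). Cyp3a11, a broad drug oxidase, had 3.68 and 3.82, against 7.23 and 4.20, with a fold change of -1.96 (SE 1.06). Without Control 1 these were -0.04 and -0.45. Cyp2c29 and Cyp3a11 belong to families of close copies, and a probe set can read more than 1 of them.

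**Figure D3:**
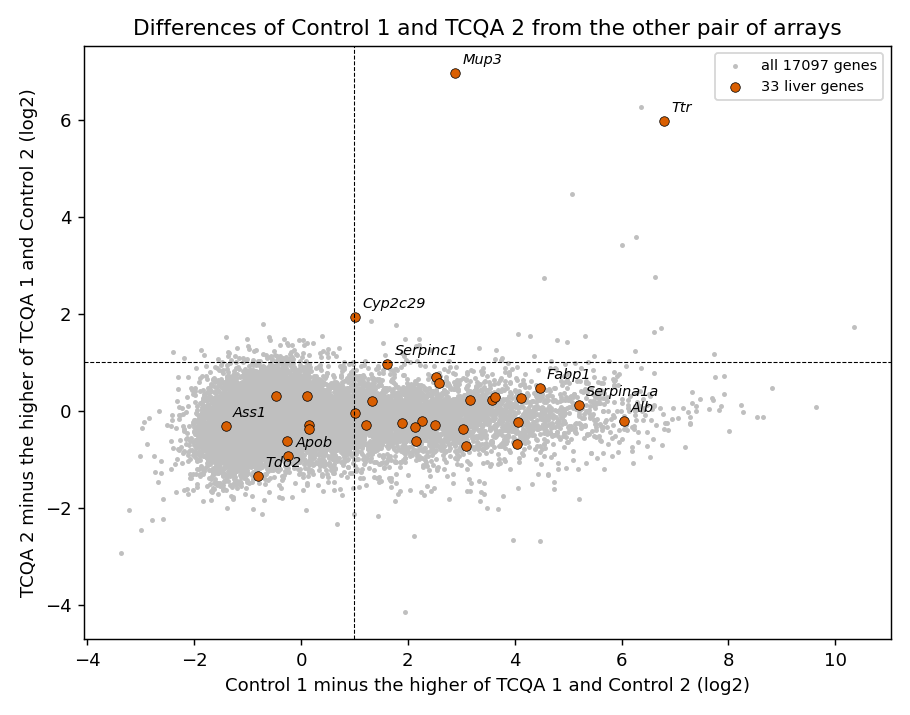
Log2 difference of TCQA 2 (vertical axis) and of Control 1 (horizontal axis) from the higher of TCQA 1 and Control 2, for 33 liver genes in orange and all 17097 genes in grey, with dashed lines at 1. Ttr (5.97 on TCQA 2, 6.80 on Control 1) and Mup3 (6.97 on TCQA 2, 2.89 on Control 1) lie far up, Cyp2c29 lies past both lines, and Alb, Serpina1a and most of the others spread along the horizontal axis.

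Compared as TCQA against control, no liver gene passed a test. In the limma fit over 45037 probe sets, 0 passed an adjusted p of 0.05 (0.0% of all) and 141 had an unadjusted p under 0.05. At a 2-fold change with an unadjusted limma p up to 0.05, 61 were higher with TCQA (0.135%) and 55 lower (0.122%), whereas by the unmoderated analysis of variance that the study's methods name 12 were higher and 14 lower. None of the 41 liver probe sets was among the limma calls, none had an unadjusted p under 0.05, and their adjusted p ran between 0.923 and 0.995. With 2 arrays a group, the smallest p an exact permutation test can give is 0.333. Over the 33 genes the log2 fold change had a median of -0.97, beside 0.08 for all genes, with 4 positive and 29 negative. Without Control 1 it was 0.04, beside -0.03 for all genes, with 17 positive and 16 negative. Both TCQA arrays exceeded both control arrays in 1 gene (3.03%, beside 16.0% of all genes) and below them in 9 (27.3%, beside 13.6%).

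**Figure D4:**
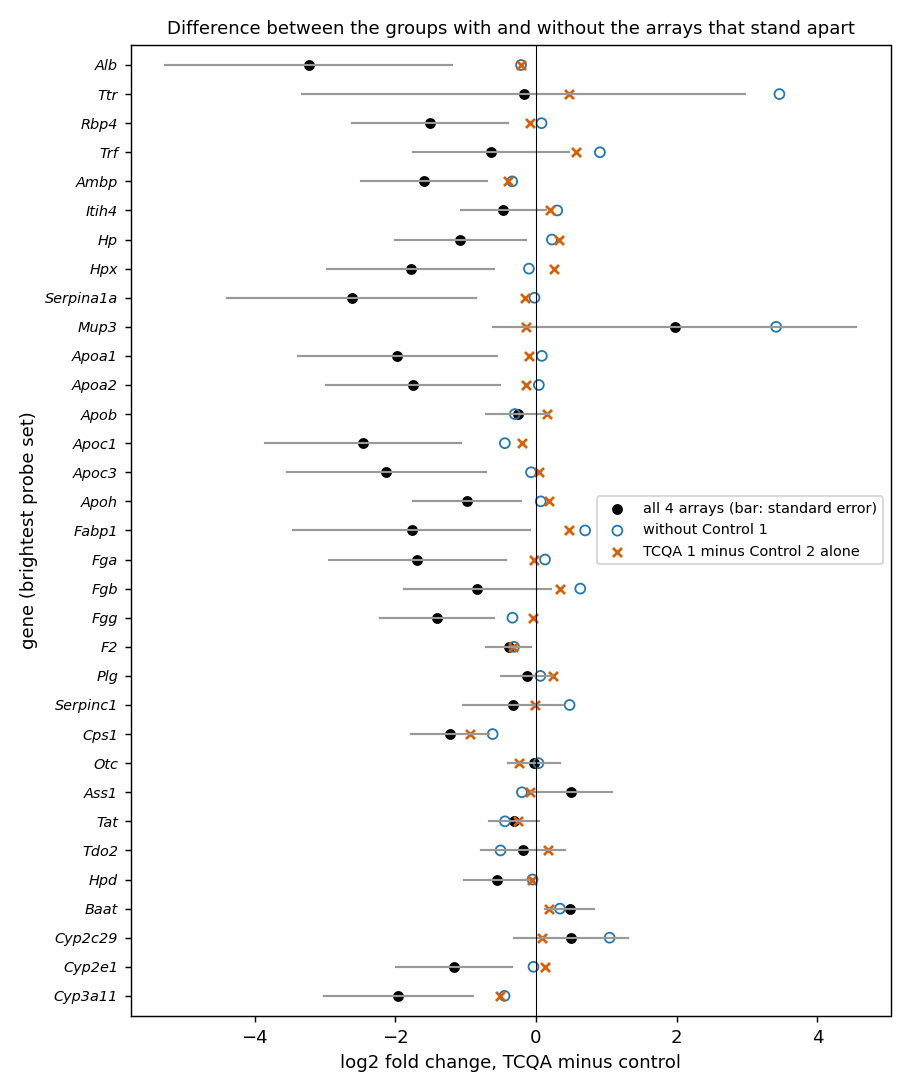
Log2 fold change (TCQA minus control) of the 33 liver genes over all 4 arrays (filled circles with the standard error), without Control 1 (open circles), and TCQA 1 minus Control 2 alone (crosses). Most filled circles lie left of 0 with wide bars, and most open circles and crosses lie near 0, apart from the open circles of Ttr (3.46), Mup3 (3.41) and Cyp2c29 (1.05).

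Leaving out Control 2 made Control 1 the lone vehicle array, assumed to vary as the TCQA arrays did. Then 1 of 33 genes was higher with TCQA at a limma adjusted p under 0.05 (Ass1, fold change 1.2, adjusted p = 0.0401), beside 7.34% of all probe sets, and 21 were lower, beside 16.1%. That call rests on the brighter set of Ass1, and the other set had a fold change of -0.55. Alb then had a fold change of -6.25 and Serpina1a one of -5.22. That fit had 1 vehicle array, and the liver genes were chosen with their levels on it known. Its calls therefore describe Control 1 and are not a test of TCQA. The liver genes were counted by 1 probe set each, whereas the shares beside them are over all probe sets. When Control 1, TCQA 1 or TCQA 2 was left out instead, 0 probe sets passed an adjusted p of 0.05 by limma.

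Other liver genes, from 9 lists by role with 182 genes of which 146 were measured, did not follow the list as a whole. Of these, 3 were high on TCQA 2 (2.05%) and 24 on Control 1 (16.4%), against 0.79% and 21.0% of all genes. Among 25 other plasma carriers, apolipoproteins and inhibitors, 5 were high on Control 1, led by Apoe, Serping1 and Pzp. Apoe, which many tissues make, had 2.48 and 2.64 on the TCQA arrays, against 7.95 and 2.30 on Control 1 and Control 2. Serping1, the inhibitor of complement C1, had 2.80 and 2.69, against 6.24 and 2.89. Pzp, an alpha-2-macroglobulin relative, had 2.82 and 2.57, against 5.30 and 2.12. Complement had 0 of 16 genes high on Control 1 and the other coagulation factors had 1 of 13 (Pros1). The acute phase list had 3 of 12, namely Hamp, Saa2 and Saa1, of which Hamp, the iron hormone hepcidin, had 2.57 and 2.83, against 5.21 and 2.84.

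Metabolic genes outside the 33 were likewise mostly level. Of 23 detoxification genes 1 was high on TCQA 2 (Cyp2d26) and 6 on Control 1. Gstm1, a glutathione transferase, had 2.50 and 2.74 on the TCQA arrays, against 6.18 and 2.86 on Control 1 and Control 2, and Adh1, alcohol dehydrogenase, had 3.04 and 3.11, against 6.75 and 3.53. Urea cycle, amino acid and glucose genes had 3 of 22 high on Control 1, with Bhmt, which remethylates homocysteine, at 3.21 and 2.80, against 5.56 and 3.23, and Arg1, the last enzyme of the urea cycle, at 1.83 and 1.35, against 4.11 and 1.42. Bile acid and lipid genes had 3 of 18, with Abcb4, the phospholipid pump of bile, at 3.29 and 3.45, against 5.82 and 3.07. Of 16 liver transcription factors 2 were high on TCQA 2 and 3 on Control 1. Cebpb had 1.83 and 3.39, against 7.15 and 1.84, and Dbp, a clock-driven factor, had 2.12 and 3.18, against 5.75 and 2.09. Cebpb and Dbp were, like Ttr and Mup3, high on 1 array of each group. The list as a whole did not share this. Its difference of Control 1 from the higher of TCQA 1 and Control 2 had a median of -0.88, beside -0.40 for all genes. On Control 1, 5 of the 16 lay at least 1 below the lower of TCQA 1 and Control 2, a larger share than the 2044 of all 17097 genes. Hnf4a had 4.71 and 4.28 on the TCQA arrays, against 3.81 and 4.72 on Control 1 and Control 2, and Foxa2 had 4.59 and 3.98, against 2.75 and 4.12.

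**Figure D5:**
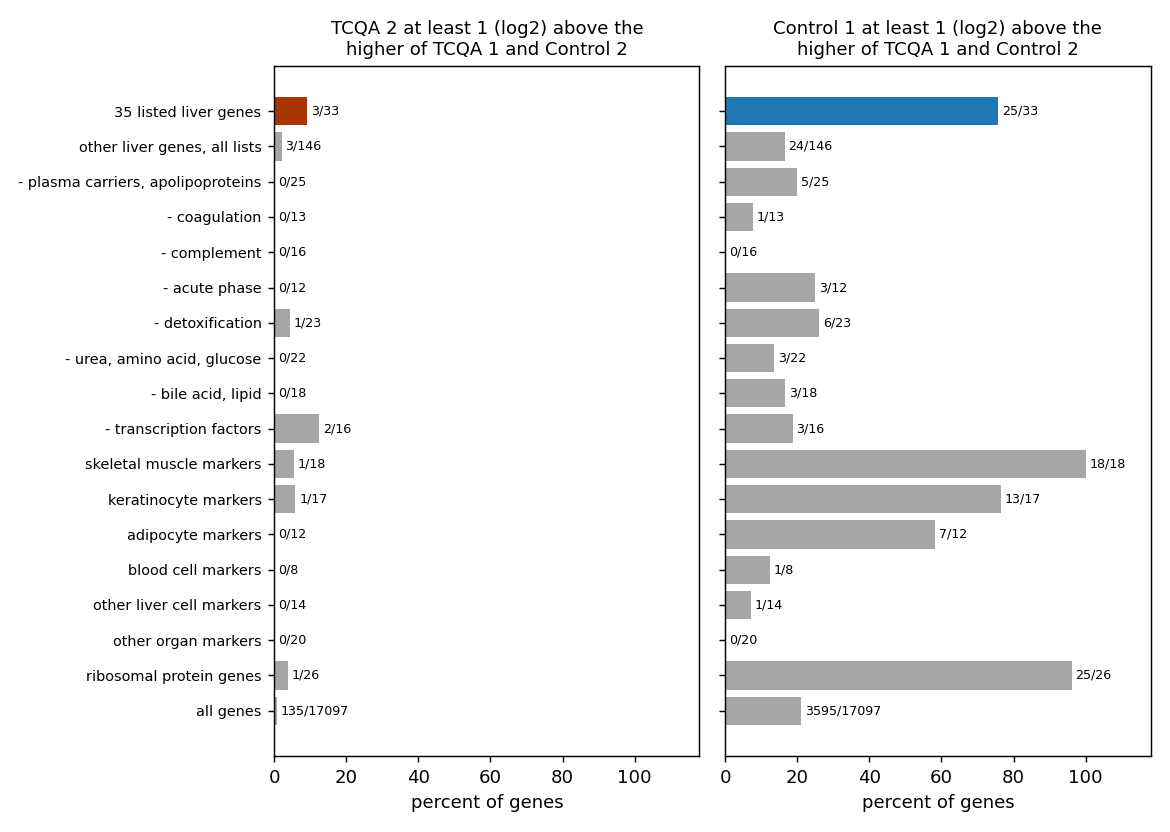
Percent of genes at least 1 on the log2 scale above the higher of TCQA 1 and Control 2, on TCQA 2 (left panel) and on Control 1 (right panel), for the liver genes, other liver lists, markers of other cell types and all genes, with counts beside the bars. The 33 liver genes reach 9.09% and 75.8%, the other liver lists together 2.05% and 16.4%, and all genes 0.79% and 21.0%.

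Muscle, keratinocyte and adipocyte markers were mostly high on Control 1, as were the liver transcripts. Blood cell, other liver cell and other organ markers were not, with shares of 12.5%, 7.14% and 0.0%, beside 21.0% of all genes. Skeletal muscle markers were high there in 18 of 18 genes, with a summed linear level of 180 and 196 on TCQA 1 and TCQA 2, against 23600 and 170 on Control 1 and Control 2. Keratinocyte markers were high in 13 of 17, with sums of 130 and 167, against 4780 and 127, and adipocyte markers in 7 of 12, with sums of 129 and 126, against 3470 and 137. The 33 liver genes summed to 279 and 1020 on the TCQA arrays, against 2610 and 286. The sum on TCQA 2 holds the high log2 readings of Mup3 (8.89) and Ttr (7.75) and is no rise of the list. The median difference of TCQA 2 from the higher of TCQA 1 and Control 2 was -0.21 for the liver genes. All 17097 genes summed to 178000 and 169000 on TCQA 1 and TCQA 2, against 458000 and 178000 on Control 1 and Control 2. Blood cell markers were high in 1 of 8 (Hba-a1), with sums of 120 and 114, against 283 and 131. Markers of liver cells other than hepatocytes were high in 1 of 14 (Des, also a muscle gene), with sums of 124 and 136, against 826 and 132. Markers of pancreas, kidney, intestine and brain were high in 0 of 20, with sums of 259 and 256, against 152 and 259. No probe set was at 0, the lowest value on any array being 0.73. On TCQA 2, where Ttr and Mup3 were high, 1 muscle gene (Myh4), 1 keratinocyte gene (Dsp) and 1 ribosomal protein gene (Rps20) were high, and the other 4 marker lists had none. The part of these cell types in the liver transcripts was not tested, and in skin RNA more cells of a type and more RNA per cell cannot be told apart.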

How the data were processed

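The authors deposited log2 values made with RMA (background correction, quantile normalization and a summary of each probe set), for 4 Affymetrix mouse PM array strips. Tools named in the submitters' processing notes are RMA, Transcriptome Analysis Console and Affymetrix Expression Console. Arrays hold no read depth, so precision is limited by how many there are. Of 45141 probe sets, 104 Affymetrix controls were left out. The platform annotation names 1 gene for 28898 of the rest and several for 551, and 15588 are unnamed here. A gene was read by its probe set with the highest mean over the 4 arrays.

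Groups follow the sample labels. They were compared by the two-sided moderated test of limma 3.58.1 (R 4.3.3, lmFit then eBayes), with 2 residual degrees of freedom. The p-values were adjusted by Benjamini-Hochberg over 45037 probe sets. The fit was also run on simulated data, drawn from the means and spreads of the arrays other than Control 1. That run lacked the spread that Control 1 brings, so it cannot show how the fit does on the full set of arrays. Values on each array are given for every gene high on TCQA 2 or Control 1, and from other lists for at most 3 genes, taken among those farthest above the low pair on TCQA 2 or Control 1. Values of Hnf4a and Foxa2 were added after they were seen. The members, lists and tests were chosen with earlier results of these data known. Lists are described by counts and medians without a set test. Alternatives were another normalization, filter, variance model, block, probe set per gene, margin, and leaving out each array. Promoters came from the RefSeq table of GRCm38.p6.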

Additional observations from a re-analysis of the deposited data

How the results depend on the processing

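Each group had 2 arrays, which limits the precision. At an adjusted p of 0.05, 0 probe sets passed, and leaving out 1 array gave 0 to 10538 (the highest without Control 2). At 2-fold and an unadjusted p up to 0.05, 116 passed (61 higher, 55 lower), 282 after a further quantile normalization (182 higher, 100 lower), 19 with dim probe sets left out, 77 with limma's trend, 26 by the unmoderated analysis of variance (12 higher, 14 lower), and 1 to 13511 when 1 array was left out. The shared number is no pairing of mice in the labels, and deviations of same-numbered arrays correlated at r = -0.124 over 45037 probe sets. With the replicate block 281 passed (54 higher, 227 lower), and with the numbers crossed, added after seeing the data, 69 passed. The median log2 fold change of the liver genes, -0.97, was -2.29 to 0.036 when 1 array was left out.

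The count high on Control 1, 25 of 33, was 19 to 25 of 33 under the alternatives run over all 33 genes, with 12.7% to 25.7% of all genes high where normalization, margin or reference was changed, and 18 of 26 without probe sets with a suffix. The count high on TCQA 2, 3, beside 0.79% of all genes, was 5 after quantile normalization (beside 2.09%), 5 when the probe sets of a gene were averaged, 5 at a margin of 0.58 (beside 4.11%), 1 of 26 (Cyp2c29) without probe sets with a suffix, and 1 (Mup3) against the highest of the other 3 arrays.

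Of 265 fold changes of the 25 genes high on Control 1, under 11 alternatives, 20 reversed. Without Control 1 alone, 12 of the 25 reversed. The total of 265 is no measure of stability, since some alternatives could not move a fold change. The replicate block left all 25 as they were, and another choice of probe set cannot change a gene that has 1. The liver genes high on neither array were not counted here. After quantile normalization Ttr was 1.32 and Trf 0.18. With the probe set brightest on TCQA 1 and Control 2, Apoh was 0.24. Leaving out 1 array gave these ranges: Ttr -3.81 to 3.46, Rbp4 -3.09 to 0.079, Trf -2.19 to 0.91, Itih4 -1.23 to 0.30, Hp -2.37 to 0.23, Mup3 -1.58 to 5.53, Apoa1 -4.03 to 0.083, Apoa2 -3.53 to 0.041, Apoh -2.02 to 0.068, Fabp1 -4.23 to 0.70, Fga -3.50 to 0.13, Fgb -2.29 to 0.63, Serpinc1 -1.14 to 0.48, Cyp2c29 -0.47 to 1.46.
The cause of these shifts was not tested.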

Other observations

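The probe sets farthest above the low pair of arrays on TCQA 2 included genes outside liver metabolism. Of the 10 with the largest difference of TCQA 2 from the higher of TCQA 1 and Control 2, 7 carried the suffix _x_at, as do 4.08% of all single-gene probe sets, and 9 were high on Control 1 too. Besides Mup3 and Ttr they were Mdh1, Hspa8, Dsp, Rpl35, Paics, Hadh, Reep5 and the histone gene H3c1. Mdh1, cytosolic malate dehydrogenase, had log2 values of 2.22 and 8.48 on TCQA 1 and TCQA 2, against 8.59 and 1.71 on Control 1 and Control 2. Hspa8, a chaperone of all cells, had 3.99 and 8.47, against 9.07 and 3.40. Dsp, the desmosome protein desmoplakin, had 2.02 and 5.61, against 8.29 and 1.93. H3c1 had 1.63 and 3.67, against 1.19 and 1.53, and was the exception that was not high on Control 1. These probe sets were picked by their values, so the list is a description of 1 array.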
